A study of Drosophila melanogaster with 8 samples.

Results

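The 9 enzymes Hex-A, Pfk, Ald1, Tpi, Gapdh1, Pgk, Pglym78, Eno and PyK, which carry out steps of glycolysis from glucose to pyruvate, and Ldh, which reduces pyruvate to lactate, were followed in RNA from enterocyte preparations of the adult Drosophila melanogaster posterior midgut. They were taken by gene symbol, from a list drawn up with earlier results of these data known. All 10 were among the 9177 genes of the deposited table and among the 8775 that passed the filter on low counts. PyK is the annotation's spelling of the pyruvate kinase gene also written Pyk.

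SvbAct flies (n = 3 libraries, tubGal80TS/UAS-SvbACT::GFP) expressed a constitutive activator form of the transcription factor Shavenbaby (Svb), which the ovo locus encodes. Libraries labelled RNAiSvb (n = 3, tubGal80TS/UAS-SvbRNAi) came from flies with a hairpin transgene against Svb, and Ctrl (n = 2, tubGal80TS/+) from the driver line crossed to Canton-S. All 3 groups carried MyoIA-Gal4, UAS-GFP/+, a driver for enterocytes (the absorptive gut cells), and its temperature-sensitive Gal80 repressor was lifted at 29 °C. The strain label instead names ISCs (intestinal stem cells), and the genotype was followed here. Virgin females were shifted at 3 days of age and dissected at 9 days, after 6 days of induction, and each library came from the pooled guts of many females, as tissue patches held back by a cell strainer.

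Glycolysis breaks glucose down to pyruvate in the cytosol. Pyruvate either enters mitochondria through the mitochondrial pyruvate carrier or is reduced to lactate by Ldh, which returns NAD+ to glycolysis. In the fly gut the carrier is known for its role in intestinal stem cells, where its loss promotes proliferation, and glycolytic enzymes are also abundant in muscle, a thin layer of which surrounds the gut.

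Library totals lay between 15450011 and 23748649 counts, of which the 10 genes took 0.21% to 0.305%. The targeted gene ovo was at 43.5 to 82.8 CPM (counts scaled to a common library size with TMM factors) in SvbAct, at 1.11 to 2.95 CPM in the libraries labelled RNAiSvb and at 0.121 to 0.481 CPM in Ctrl. Ctrl had only 9 and 2 counts of ovo, too few for a fall below Ctrl to be seen. Whether the hairpin lowered ovo therefore cannot be told from these libraries, and no direction below rests on a knockdown. Each of the 9 enterocyte markers was present, with a summed level of 8873 to 11421 CPM in SvbAct, 11060 to 15020 CPM in the libraries labelled RNAiSvb and 10842 to 11383 CPM in Ctrl. Of these, nub, a transcription factor of enterocytes, passed as higher in SvbAct than in Ctrl (log2 fold change 1.21, edgeR adjusted p 0.0107). The trypsin gene alphaTry and the amylase gene Amy-p passed as lower in SvbAct than in the libraries labelled RNAiSvb (log2 fold changes -0.87 and -2.24, edgeR adjusted p 0.0376 and 0.0127). The part of these markers in the results below was not tested. The series text calls the replicates biological and made on different days. Nothing further is given on how separate they were, so p-values measure the spread between these libraries, which may be partly technical.

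The 10 genes differed widely in level once counts were divided by annotated exon length. The order in Ctrl began with PyK, the pyruvate kinase that makes pyruvate and ATP in the last glycolytic step, at 221 ± 10.6 CPM per kb (SD, n = 2), and with Ald1, the aldolase that splits fructose bisphosphate, at 205 ± 7.41 CPM per kb. They were followed by Pglym78 (phosphoglycerate mutase) at 102 ± 15.6, Eno (enolase) at 90.3 ± 1.33, Gapdh1 (glyceraldehyde phosphate dehydrogenase) at 81.9 ± 1.08 and Tpi (triose phosphate isomerase) at 80 ± 17.6 CPM per kb (SD, n = 2 each). Pgk (phosphoglycerate kinase), at 48 ± 5.69 CPM per kb, and Hex-A (hexokinase), at 44 ± 4.79 CPM per kb, came next. Pfk (phosphofructokinase), which commits sugar to glycolysis, was at 23.4 ± 1.75 CPM per kb, and Ldh was lowest at 16.8 ± 1.34 CPM per kb (SD, n = 2 each). Among neighbours in this order, PyK and Ald1, Pglym78 and Eno, Gapdh1 and Tpi, and Pgk and Hex-A lay closer together than the sum of their SDs. Exon length here is the union over transcripts, so a gene with long exons that gut cells do not use is placed too low.

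**Figure D1:**
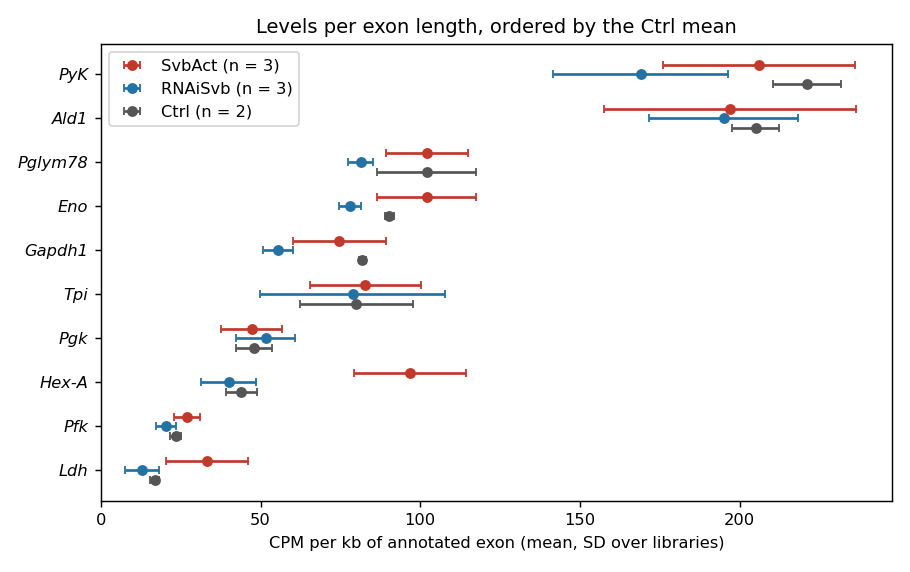
Level of each gene per kb of annotated exon on the horizontal axis (mean, with the SD over libraries as error bars), for SvbAct, the libraries labelled RNAiSvb and Ctrl, ordered by the Ctrl mean. Hex-A is at 96.7 CPM per kb in SvbAct against 44 in Ctrl, while the 3 groups lie close together for Tpi and Pgk.

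In SvbAct the order changed at 3 places, 1 of them the exchange of Tpi and Gapdh1, whose gap was smaller than the sum of their SDs. Hex-A took rank 5 of 10, with 96.7 ± 17.6 CPM per kb (SD, n = 3) in SvbAct, against rank 8 in Ctrl, and its gaps to both neighbours, Eno and Tpi, were smaller than the sums of SDs. Ldh, at 33.2 ± 12.8 CPM per kb in SvbAct (SD, n = 3), stood above Pfk at 27.1 ± 4.09 CPM per kb, but by less than the sum of their SDs. In the libraries labelled RNAiSvb, Hex-A was again at rank 8 with 40 ± 8.66 CPM per kb, and Ldh was lowest with 12.9 ± 5.21 CPM per kb (SD, n = 3 each).

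The comparison of SvbAct with Ctrl set flies with the activator transgene beside flies with no Svb transgene, from a cross to Canton-S. Effects of the activator form and of the line that carries it cannot be told apart here. Hex-A, the hexokinase that phosphorylates glucose on entry into glycolysis, rose 2.2-fold in SvbAct, and it alone of the 10 genes passed the threshold. Ldh was next in size and did not pass, and the other 8 enzymes lay within 0.21 log2 units of no change. Of all genes tested, 3.44% passed in this comparison (6.93% in the DESeq2 Wald test, where Hex-A alone passed as well). Hex-A and Ldh were 2 of 10 genes whose CPM values did not overlap between SvbAct and Ctrl, and 38.6% of all genes tested did not overlap. The median log2 fold change was 0.03 over the 10 genes, and over all genes tested it was -0.01.

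Hex-A (FBgn0001186, plus strand of chromosome X, 9585675 to 9589813 in BDGP6.54) had 320 (replicate 1), 463 (replicate 2) and 416 CPM (replicate 3) in SvbAct, 206, 154 and 137 CPM in the libraries labelled RNAiSvb, and 168 and 196 CPM in Ctrl. Each SvbAct library was above the other 5 libraries, and the libraries labelled RNAiSvb overlapped Ctrl. The log2 fold change in SvbAct against Ctrl was 1.14 (SE 0.23, edgeR quasi-likelihood adjusted p 0.0249). It was 1.27 when SvbAct was set against the libraries labelled RNAiSvb (SE 0.20, edgeR adjusted p 0.00577). In the libraries labelled RNAiSvb against Ctrl it was -0.14 (95% interval -0.63 to 0.35, edgeR adjusted p 0.829). The rise against Ctrl did not pass without SvbAct replicate 2 (log2 fold change 1.02, edgeR adjusted p 0.0653), without Ctrl replicate 1 (1.03, adjusted p 0.271) or without Ctrl replicate 2 (1.25, adjusted p 0.137), while the rise against the libraries labelled RNAiSvb passed in each of the 14 alternatives run. In these bulk preparations, more cells of a type and more RNA per cell cannot be told apart.

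Ratios within a library do not depend on how libraries are scaled. Hex-A stood at 0.172 to 0.204 of the summed CPM of the 8 enzymes from Pfk to PyK in SvbAct, at 0.0739 to 0.111 in the libraries labelled RNAiSvb and at 0.0759 to 0.0914 in Ctrl. The SvbAct range did not overlap the other ranges. This ratio was chosen after the values were seen and was given no test.

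Ldh (minus strand of chromosome 3L, 6259105 to 6262694), the only step here that uses pyruvate, had 58.4 (replicate 1), 92 (replicate 2) and 43.3 CPM (replicate 3) in SvbAct, 36.5, 17.6 and 20.8 CPM in the libraries labelled RNAiSvb, and 34.5 and 30.8 CPM in Ctrl. The 3 SvbAct libraries were above the other 5, although replicate 3 was only slightly above replicate 1 of the libraries labelled RNAiSvb. It was the most variable of the 10 genes among replicates of both transgene groups, with a coefficient of variation of 38.6% in SvbAct and 40.5% in the libraries labelled RNAiSvb, against a counting error of at most 4.92%. In Ctrl its coefficient of variation was 7.98%, below the 22% of Tpi. Against the libraries labelled RNAiSvb it rose 2.58-fold (log2 fold change 1.37, SE 0.32, edgeR adjusted p 0.0316). Against Ctrl the log2 fold change was 0.98 (SE 0.36, 95% interval 0.19 to 1.78) and did not pass (edgeR adjusted p 0.192).

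The rise of Ldh in SvbAct against the libraries labelled RNAiSvb depended on single libraries. Its edgeR adjusted p was 0.0581 without SvbAct replicate 1, 0.106 without SvbAct replicate 2, 0.113 without RNAiSvb replicate 2, 0.0861 without RNAiSvb replicate 3, and 0.054 and 0.0547 without Ctrl replicate 1 or 2, which enter through the shared estimate of the spread. The log2 fold change stayed between 1.03 and 1.74 with any 1 library left out.

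**Figure D2:**
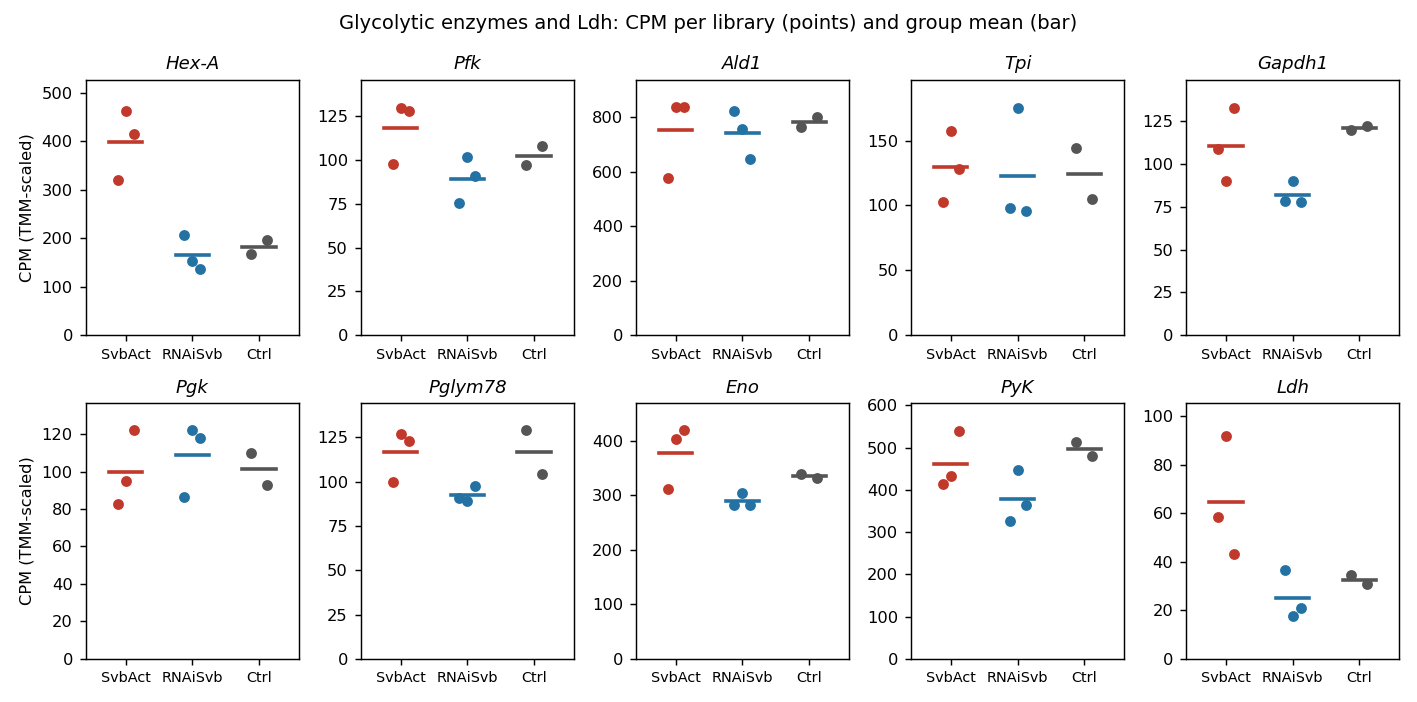
CPM of each of the 10 genes (vertical axes, each starting at 0) in the 3 SvbAct libraries, the 3 libraries labelled RNAiSvb and the 2 Ctrl libraries, with 1 point per library and a bar at the group mean. The SvbAct points of Hex-A (320 to 463 CPM) and Ldh (43.3 to 92 CPM) lie above those of the other groups, and those of the 8 other enzymes overlap Ctrl.

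The 8 enzymes between the first phosphorylation of glucose and pyruvate showed no call in SvbAct against Ctrl. The count was 0 of 8 in edgeR, 0 of 8 at an unadjusted edgeR p under 0.05 and 0 of 8 in the DESeq2 Wald test. Over all genes tested, edgeR called 3.44%, 1523 of 8775 had such a p and DESeq2 called 6.93%. With shares this low, 0 calls among 8 genes say little about these enzymes. For each of the 8 the CPM values of SvbAct and Ctrl overlapped, where 38.6% of all genes did not overlap. The estimates ran from -0.13 for Gapdh1 (95% interval -0.54 to 0.27) to 0.21 for Pfk (95% interval -0.21 to 0.63). Eno had 312, 404 and 419 CPM in SvbAct, against 339 and 332 CPM in Ctrl, and a log2 fold change of 0.17 (95% interval -0.21 to 0.56). Tpi was the least certain of the 8, with an interval of -0.59 to 0.69 around a log2 fold change of 0.05. Ald1, the gene with the most counts of the 10, had 578, 839 and 836 CPM in SvbAct, against 762 and 802 CPM in Ctrl. Its lowest value of the 8 libraries came from SvbAct replicate 1.

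The remaining enzymes showed the same overlap library by library. Pfk had 97.9, 130 and 128 CPM in SvbAct, 75.3, 102 and 90.8 CPM in the libraries labelled RNAiSvb, and 97 and 108 CPM in Ctrl. Tpi, which interconverts the triose phosphates, had 103, 157 and 128 CPM in SvbAct, 98.2, 175 and 95.5 CPM in the libraries labelled RNAiSvb, and 144 and 105 CPM in Ctrl. Replicate 2 was the highest of its group in both transgene groups for Tpi, and the range within each group was wider than the distance between the group means. Pgk had 82.5, 94.7 and 122 CPM in SvbAct, 86.3, 122 and 118 CPM in the libraries labelled RNAiSvb, and 110 and 92.9 CPM in Ctrl. Pglym78, which moves the phosphate ahead of enolase, had 99.8, 127 and 123 CPM in SvbAct, 90.5, 89 and 97.5 CPM in the libraries labelled RNAiSvb, and 129 and 104 CPM in Ctrl. For Pglym78 the libraries labelled RNAiSvb were below the other 5. PyK had 415, 432 and 539 CPM in SvbAct, against 513 and 479 CPM in Ctrl. Summed over the 8 enzymes, the level was 1796 to 2427 CPM in SvbAct, 1772 to 2086 CPM in the libraries labelled RNAiSvb and 2146 to 2214 CPM in Ctrl.

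**Figure D3:**
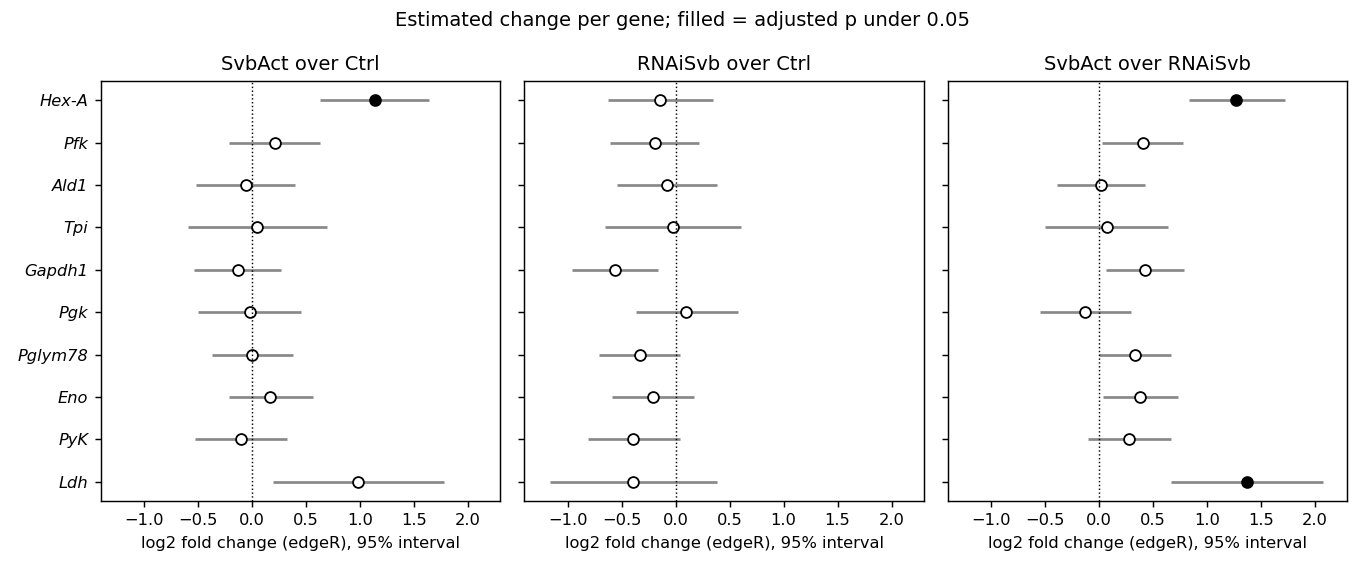
Log2 fold change of each gene (horizontal axis, with the 95% interval as a line) in SvbAct over Ctrl, the libraries labelled RNAiSvb over Ctrl, and SvbAct over the libraries labelled RNAiSvb. Filled points passed an edgeR adjusted p of 0.05, which are Hex-A (1.14) in the first comparison, and Hex-A (1.27) and Ldh (1.37) in the last.

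The libraries labelled RNAiSvb were likewise compared with Ctrl, where effects of the hairpin and of its line cannot be told apart. Of the 10 genes 0 passed in edgeR and 0 in the DESeq2 Wald test, where 1.36% and 3.84% of all genes tested passed, and 1 had an unadjusted edgeR p under 0.05. Most estimates were slightly negative, 9 of 10 below 0, with a median of -0.2 over the 10 genes and 0.02 over all genes tested. The exception was Pgk, the first ATP-making enzyme of the pathway, at 0.1 (95% interval -0.37 to 0.58). When library totals replaced the TMM factors, which moved the median of all genes to 0.13, Ald1 and Tpi were also above 0, and 9 of 10 genes were still below that median.

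Gapdh1 had the most negative estimate. It was at 78.3, 90.2 and 78 CPM in the libraries labelled RNAiSvb, against 120 and 122 CPM in Ctrl, with no overlap (log2 fold change -0.56, SE 0.18, edgeR adjusted p 0.208). PyK had 327, 447 and 364 CPM in the libraries labelled RNAiSvb, against 513 and 479 CPM in Ctrl, also without overlap (log2 fold change -0.39, 95% interval -0.81 to 0.04). With Pglym78 and Eno, 4 of the 10 genes did not overlap between these groups, where 32.9% of all genes tested did not. The share among the 10 genes is thus near that of the table as a whole.

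SvbAct was set directly against the libraries labelled RNAiSvb to test whether these transgene groups differ. Effects of the activator form, of the hairpin and of the lines that carry them cannot be told apart here. Hex-A and Ldh were higher in SvbAct, as given above, making 2 of 10 genes in edgeR and in the DESeq2 Wald test, where 6.26% and 11.5% of all genes tested passed. With Pglym78 and Eno, 4 of the 10 genes did not overlap between these groups, against 29.8% of all genes tested. The median log2 fold change was 0.36 over the 10 genes and -0.02 over all genes tested. Eno was at 312 to 419 CPM in SvbAct, against 282 to 305 CPM in the libraries labelled RNAiSvb, a log2 fold change of 0.38 that did not pass (95% interval 0.04 to 0.73, edgeR adjusted p 0.168). Gapdh1 and Pfk were similar in size, at 0.43 (95% interval 0.06 to 0.79) and 0.41 (95% interval 0.03 to 0.78), and did not pass. Pgk was the 1 gene with a negative estimate, -0.13 (95% interval -0.55 to 0.30).

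Reads of some of these genes may be shared with others. Exons of Ald1, Pgk, Pglym78 and Eno overlap a gene on the other strand, by 338 bases with asRNA:CR44321, 65 with Cwc25, 6 with eIF2D and 362 with Rrp40. Whether the counting used strand is not given in the sources used here, so the values of these 4 genes are uncertain. The mean levels of the overlapping genes themselves were 1.44 to 24.9 CPM in any group.

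Gapdh1 has a close paralogue, Gapdh2 (chromosome X, 15868145 to 15869661), so that reads can be split between them and both values are uncertain. Gapdh2 took 77.2% to 82.1% of the counts of the pair in SvbAct, 83.2% to 84.6% in the libraries labelled RNAiSvb and 80% to 80.6% in Ctrl. It had 419 ± 55.9 CPM in SvbAct (SD, n = 3), against 495 ± 19.4 CPM in Ctrl (SD, n = 2), a log2 fold change of -0.24 that did not pass (edgeR adjusted p 0.52).

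Hex-C, the other hexokinase gene in the table, was a minor share of hexokinase counts. It was at 21.5, 23.8 and 30.7 CPM in SvbAct, 32.1, 64.8 and 37.2 CPM in the libraries labelled RNAiSvb, and 35 and 25.9 CPM in Ctrl. Hex-A made up 93.1% to 95.1% of the counts of both genes in SvbAct, 70.4% to 86.5% in the libraries labelled RNAiSvb and 82.7% to 88.3% in Ctrl, so that the SvbAct range did not overlap the others. Hex-C itself did not pass in SvbAct against Ctrl (log2 fold change -0.27, 95% interval -0.94 to 0.40) or against the libraries labelled RNAiSvb (-0.82, edgeR adjusted p 0.1).

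Pgi, the isomerase that works between hexokinase and phosphofructokinase, had 130, 149 and 175 CPM in SvbAct, 106, 115 and 104 CPM in the libraries labelled RNAiSvb, and 177 and 194 CPM in Ctrl. Both transgene groups lay below Ctrl without overlap. Its log2 fold change was -0.29 in SvbAct against Ctrl (edgeR adjusted p 0.405) and -0.77 in the libraries labelled RNAiSvb against Ctrl (SE 0.16, edgeR adjusted p 0.0512), just outside the threshold. The estimate for the libraries labelled RNAiSvb passed in the DESeq2 Wald test (DESeq2 adjusted p 0.00367), without SvbAct replicate 3 (edgeR adjusted p 0.0465) and in a fit of only these groups (0.047). Within the list of other glycolytic enzymes and isozymes, 6 of 15 genes were in the table, and 0 passed in edgeR in any comparison, where 0, 1 and 2 had an unadjusted p under 0.05 and DESeq2 called 0, 1 and 1 (in SvbAct against Ctrl, RNAiSvb against Ctrl, and SvbAct against RNAiSvb). In the same order, 1523, 1191 and 2082 of the 8775 genes tested had an unadjusted p under 0.05. Of all genes, edgeR called 3.44%, 1.36% and 6.26%, and DESeq2 called 6.93%, 3.84% and 11.5%.

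**Figure D4:**
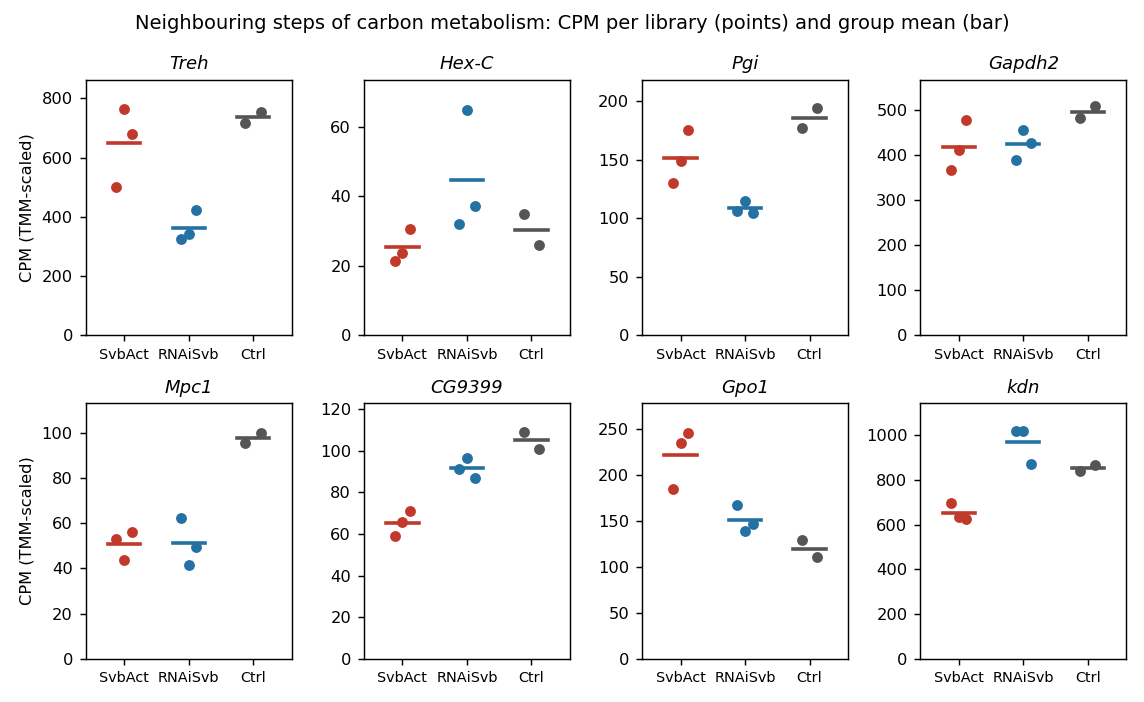
CPM of 8 genes of neighbouring steps (vertical axes, each starting at 0) in SvbAct, the libraries labelled RNAiSvb and Ctrl, with 1 point per library and a bar at the group mean. Mpc1 is at 41.6 to 62.4 CPM in both transgene groups against 95.5 and 99.7 CPM in Ctrl, and Treh is lowest in the libraries labelled RNAiSvb.

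The genes around the pathway were taken from 6 lists of carbon metabolism, 62 of whose genes were tested. In SvbAct against Ctrl 3 passed, 1 higher and 2 lower, where 3.44% of all genes passed. In the libraries labelled RNAiSvb against Ctrl 2 passed, both lower, where 1.36% of all genes did. In SvbAct against those libraries 2 passed, 1 in each direction, where 6.26% of all genes did.

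Mpc1, a subunit of the mitochondrial pyruvate carrier, was lower in both transgene groups than in Ctrl, where effects of transgene and line cannot be told apart. It had 52.9, 43.6 and 56.2 CPM in SvbAct, 62.4, 41.6 and 49.5 CPM in the libraries labelled RNAiSvb, and 95.5 and 99.7 CPM in Ctrl, so that Ctrl stood above the other 6 libraries. The log2 fold change was -0.94 in SvbAct (SE 0.19, edgeR adjusted p 0.027) and -0.93 in the libraries labelled RNAiSvb (SE 0.19, edgeR adjusted p 0.0473), both against the same 2 Ctrl libraries. SvbAct and the libraries labelled RNAiSvb differed by -0.01 (95% interval -0.40 to 0.38). With library totals neither fall passed (edgeR adjusted p 0.0633 and 0.112). In SvbAct the call was lost without SvbAct replicate 1 or 2 or without either Ctrl library (edgeR adjusted p 0.0693 to 0.173). In the libraries labelled RNAiSvb it was lost without RNAiSvb replicate 2 or 3, SvbAct replicate 1 or 3 or either Ctrl library (0.0564 to 0.343), and in a fit of only these groups (0.0558).

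CG9399, a gene for the other subunit of the carrier, was at 58.8, 65.8 and 70.8 CPM in SvbAct, against 109 and 101 CPM in Ctrl. Its log2 fold change was -0.69 (SE 0.15, edgeR adjusted p 0.0352). The call was lost in 10 of 14 alternatives, among them library totals (edgeR adjusted p 0.0714) and the removal of any 1 library other than RNAiSvb replicate 2 (0.051 to 0.307). In the libraries labelled RNAiSvb it was at 86.7 to 96.3 CPM and did not pass against Ctrl (log2 fold change -0.20).

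Gpo1, the mitochondrial glycerol phosphate dehydrogenase that passes electrons from cytosolic NADH to the respiratory chain, rose in SvbAct. It had 185, 235 and 246 CPM in SvbAct, 167, 139 and 147 CPM in the libraries labelled RNAiSvb, and 129 and 111 CPM in Ctrl. The log2 fold change in SvbAct against Ctrl was 0.88 (SE 0.18, edgeR adjusted p 0.0273). It did not pass without SvbAct replicate 2 or 3 or without either Ctrl library (edgeR adjusted p 0.064 to 0.236). Gpdh1, its cytosolic partner in the shuttle, had 761 ± 194 CPM in SvbAct (SD, n = 3) and 748 ± 29.1 CPM in Ctrl (SD, n = 2). PCB, the pyruvate carboxylase gene that starts gluconeogenesis, had 372 ± 96.3 CPM in SvbAct and 412 ± 185 CPM in Ctrl.

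Treh, the trehalase that cleaves trehalose to glucose, was at 500, 763 and 681 CPM in SvbAct, 324, 341 and 423 CPM in the libraries labelled RNAiSvb, and 718 and 756 CPM in Ctrl. The libraries labelled RNAiSvb lay below the other 5. Their log2 fold change against Ctrl was -1.02 (SE 0.21, edgeR adjusted p 0.0434), and SvbAct was 0.84 higher than they were (SE 0.19, edgeR adjusted p 0.0298). The first call was lost with library totals (0.0728) and without RNAiSvb replicate 1 or 2, SvbAct replicate 3 or either Ctrl library (0.0578 to 0.337). The other was lost without any 1 library except RNAiSvb replicate 3 and SvbAct replicate 1 (0.054 to 0.0979). Glyp, the glycogen phosphorylase gene of the same list, had 201 ± 23.8 CPM in SvbAct (SD, n = 3) and 152 ± 28.6 CPM in Ctrl (SD, n = 2), and did not pass. Exons of Treh overlap Rbpn-5 on the other strand by 560 bases, so its values are uncertain.

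In the TCA cycle list (16 genes tested) the 16 estimates of SvbAct against the libraries labelled RNAiSvb were negative, with a median of -0.27 against -0.02 over all genes, and 1 passed. Over all genes 4522 of 8775 estimates were negative and 6.26% passed. The gene that passed was kdn, the citrate synthase gene, at 653 ± 39.8 CPM in SvbAct and 970 ± 84.9 CPM in the libraries labelled RNAiSvb (SD, n = 3 each). The difference, -0.57 on the log2 scale with an SE of 0.15, was at the threshold (edgeR adjusted p 0.0499). It did not pass when any 1 of the 8 libraries was left out (0.0659 to 0.127). mAcon1, an aconitase gene, was at 777 to 834 CPM in SvbAct, 1047 to 1396 CPM in the libraries labelled RNAiSvb and 1058 to 1243 CPM in Ctrl, and did not pass in edgeR. Against Ctrl, 0 of 16 genes passed in either transgene group in edgeR or DESeq2, with 3 and 0 at an unadjusted edgeR p under 0.05 in SvbAct and in the libraries labelled RNAiSvb. Over all genes in these comparisons, edgeR called 3.44% and 1.36%, DESeq2 called 6.93% and 3.84%, and 1523 and 1191 of 8775 had such a p.

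The pentose phosphate list (7 genes tested) had 0 calls in edgeR in each comparison, with 0, 2 and 2 genes at an unadjusted p under 0.05 in SvbAct against Ctrl, RNAiSvb against Ctrl and SvbAct against RNAiSvb, and 0, 0 and 2 calls in DESeq2. CG8036, a transketolase-like gene, was at 266 to 514 CPM in SvbAct and 358 to 381 CPM in Ctrl, and Pgd, a dehydrogenase of the oxidative branch, at 176 to 210 CPM in SvbAct and 152 to 177 CPM in Ctrl. The transcription factors and the oxygen sensor known to act on glycolytic genes (9 tested) had 0 calls in edgeR in each comparison. They had 4, 3 and 1 genes at an unadjusted p under 0.05 and 1 call each in DESeq2. Over all 8775 genes tested, 1523, 1191 and 2082 had such a p, edgeR called 3.44%, 1.36% and 6.26%, and DESeq2 called 6.93%, 3.84% and 11.5%. In SvbAct against Ctrl, 8 of the 9 estimates were below 0 and 1 above (median -0.44, against -0.01 over all genes). CPM values of 8 of the 9 did not overlap there, where 38.6% of all genes did not. Against the same Ctrl libraries, 7 of the 9 were also below 0 in the libraries labelled RNAiSvb (median -0.41, against 0.02 over all genes). For that comparison 6 of the 9 did not overlap, where 32.9% of all genes did not. Between the transgene groups the median was -0.03, against -0.02 over all genes, and 5 of the 9 did not overlap, against 29.8% of all genes. Among the 9, sima, the hypoxia-inducible factor, had 910, 895 and 959 CPM in SvbAct, 780, 700 and 789 CPM in the libraries labelled RNAiSvb, and 1005 and 1072 CPM in Ctrl. Its level was thus lowest in the libraries labelled RNAiSvb and highest in Ctrl, without overlap, and did not pass in any comparison.

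Because several glycolytic genes are also high in muscle, the 10 genes were set beside Mhc, the muscle myosin heavy chain. Mhc was at 158, 177 and 48 CPM in SvbAct, 149, 53.6 and 344 CPM in the libraries labelled RNAiSvb, and 157 and 61.2 CPM in Ctrl, so that it varied widely within groups and its groups overlapped. None of the 17 muscle markers passed in any comparison in edgeR or DESeq2, and 0 had an unadjusted edgeR p under 0.05. In the order SvbAct against Ctrl, RNAiSvb against Ctrl and SvbAct against RNAiSvb, edgeR called 3.44%, 1.36% and 6.26% of all genes. DESeq2 called 6.93%, 3.84% and 11.5%, and 1523, 1191 and 2082 of 8775 genes had such a p. Estimates of Mhc had an SE of 0.63 to 0.72, so the lack of a call does not show equal muscle RNA. The summed level of the 17 markers was 1431 to 2411 CPM in SvbAct, 904 to 2869 CPM in the libraries labelled RNAiSvb and 1358 to 1626 CPM in Ctrl. Without Tm1, a tropomyosin gene that had 598 to 1305 CPM, the sum was 297 to 1105 CPM in SvbAct, 306 to 1907 CPM in the libraries labelled RNAiSvb and 430 to 804 CPM in Ctrl. Estimates of the 17 markers were above 0 for 17 in SvbAct against Ctrl (median 0.22) and for 16 in RNAiSvb against Ctrl (median 0.68), and below 0 for 16 in SvbAct against RNAiSvb (median -0.5). In the same order, 4295 and 4599 of 8775 estimates over all genes were above 0, and 4522 were below 0. None of the 17 was at 0 in any library. SvbAct replicate 3, with the lowest Mhc of the 8 libraries, had 416 CPM of Hex-A, while RNAiSvb replicate 3, with the highest Mhc, had 137 CPM, the lowest Hex-A. Ldh followed the order of Mhc among the SvbAct libraries and between the Ctrl libraries, but not among the libraries labelled RNAiSvb, where replicate 3 had 20.8 CPM of Ldh. Without RNAiSvb replicate 3, Hex-A was 1.15 higher in SvbAct than in the libraries labelled RNAiSvb (edgeR adjusted p 0.0245), and Ldh 1.25 higher (0.0861). These values rest on single libraries, and the part of muscle RNA in the results for Hex-A and Ldh was not tested.

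Most progenitor markers were higher in SvbAct, as Hex-A and Ldh were. Of 6 tested, Delta, N, E(spl)mbeta-HLH and Sox21a (4 genes) passed as higher in SvbAct against Ctrl, where 3.44% of all genes tested passed. These and zfh2 (5 genes) passed as higher against the libraries labelled RNAiSvb, where 6.26% passed. The other marker, klu, passed in neither (log2 fold changes 0.31 and 0.37, edgeR adjusted p 0.48 and 0.246), and esg was not analysed here. The summed level of the 6 was 212 to 322 CPM in SvbAct, 105 to 121 CPM in the libraries labelled RNAiSvb and 113 to 121 CPM in Ctrl. Of this, klu alone had 70 to 105 CPM in SvbAct, 62.8 to 78.6 CPM in the libraries labelled RNAiSvb and 69.7 and 79.1 CPM in Ctrl. SvbAct replicate 2, with the highest sum, also had the highest Hex-A (463 CPM) and Ldh (92 CPM). SvbAct replicate 3, with the lowest sum of the 3, had the lowest Ldh among them (43.3 CPM) but not the lowest Hex-A (416 CPM). Their part in the results for Hex-A and Ldh was not tested. Enteroendocrine markers summed to 339 to 394 CPM in SvbAct, 311 to 461 CPM in the libraries labelled RNAiSvb and 355 to 384 CPM in Ctrl. Of these 9, the peptide hormone gene Dh31 alone passed, at 11.3 to 18.9 CPM in SvbAct, 2.56 to 2.77 CPM in the libraries labelled RNAiSvb and 9.95 to 13.7 CPM in Ctrl. It was lower in the libraries labelled RNAiSvb than in Ctrl (log2 fold change -2.14, edgeR adjusted p 0.00629), where 1.36% of all genes passed. SvbAct was higher than those libraries (2.37, edgeR adjusted p 0.00136), where 6.26% passed. Against Ctrl, Dh31 did not pass in SvbAct (0.23, edgeR adjusted p 0.738). Markers of hemocytes, fat body and trachea summed to at most 12 CPM in any library.

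**Figure D5:**
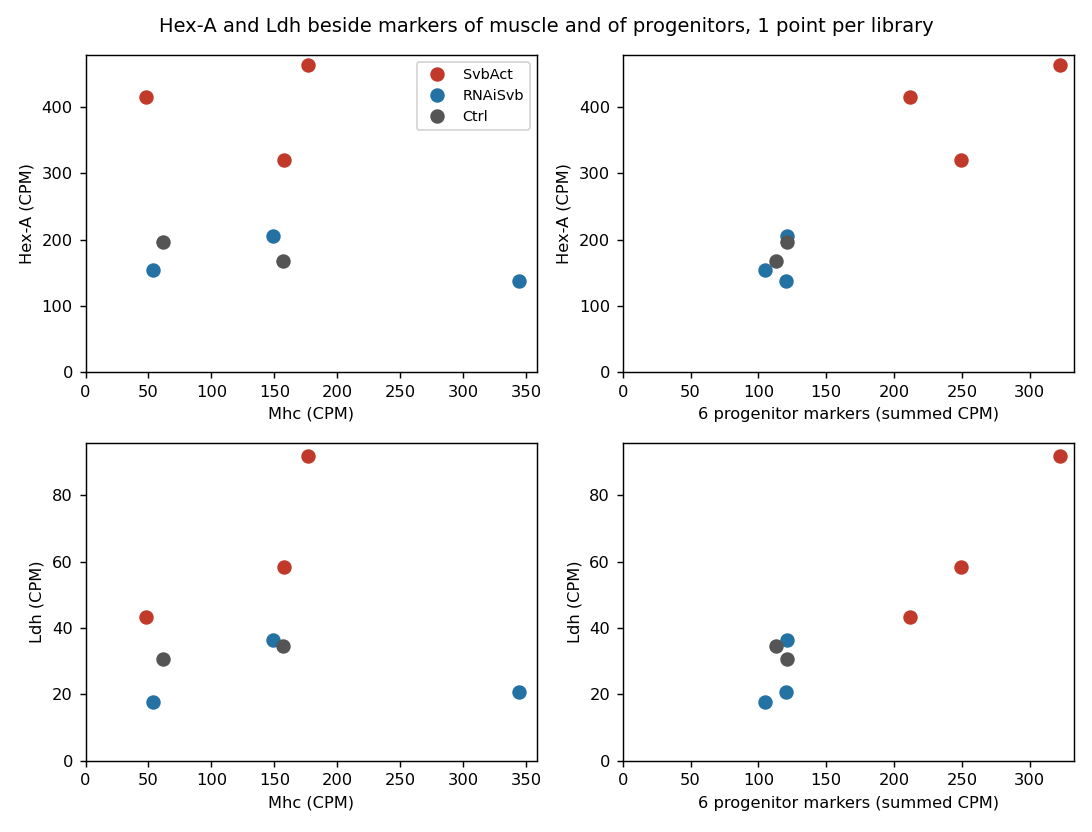
CPM of Hex-A (upper panels) and Ldh (lower panels) on the vertical axis against Mhc in CPM (left) and the summed CPM of 6 progenitor markers (right), with 1 point per library. SvbAct libraries lie apart from the others on the progenitor axis, at 212 to 322 CPM, but not on the Mhc axis, where they run from 48 to 177 CPM.

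Likeness to Ldh was measured as the root mean square distance between log2 CPM profiles, each centred on its mean over the 8 libraries. Over 6949 genes the median distance was 0.78, and Ldh itself had a root mean square spread of 0.71. The 5 nearest genes were pyd and HSPC300 at 0.20, asRNA:CR45140 at 0.21, and CG10912 and Inos at 0.23. The last of these encodes an inositol phosphate synthase, which uses glucose 6-phosphate, the product of hexokinase. Inos had 31.8, 52.6 and 35.2 CPM in SvbAct, 18.5, 10.8 and 15.2 CPM in the libraries labelled RNAiSvb, and 19.4 and 23.6 CPM in Ctrl. Among the 9 enzymes, Hex-A was the nearest to Ldh, at 0.33, and the others lay at 0.60 to 0.85. Set among the 6949 genes, the distance of Hex-A would take rank 46.

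In the authors' deposited table, which gives tests against Ctrl only, Hex-A was called upregulated in SvbAct with a log2 fold change of 1.13, and the other 9 genes were not called in either comparison. That table gave Ldh a log2 fold change of 0.98 in SvbAct and -0.39 in RNAiSvb. Outside the 10 genes, the authors' deposited table called Pgi and Treh downregulated in RNAiSvb (-0.77 and -1.02), and Mpc1 downregulated in both (-0.94 in SvbAct and -0.93 in RNAiSvb). In SvbAct, the authors' deposited table also called Gpo1 upregulated (0.88) and CG9399 downregulated (-0.69). The authors' deposited table called ovo upregulated in SvbAct (7.52) and in RNAiSvb (2.64).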

How the data were processed

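Whole-number counts for each FlyBase gene in 8 libraries were used as the authors deposited them. Per the submitters' processing notes, the tools were FastQC 0.11.5, STAR 2.5.2b, HTSeq 0.6.0 and edgeR, with the build dm6. The annotation, strand setting and gene filter are not given in the sources used here. Symbols, 1-based coordinates and exon lengths were taken from BDGP6.54 (Ensembl release 115) by gene ID.

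The quasi-likelihood test of edgeR 4.0.16 (R 4.3.3) was fitted to the 3 groups together, with TMM factors and no covariate, after filterByExpr left out 402 genes. P-values were adjusted by Benjamini-Hochberg over the 8775 genes tested, at a threshold of 0.05. An SE is the size of the log2 fold change over the root of F, and a 95% interval is that SE times a t quantile, unadjusted for the number of genes. The DESeq2 1.42.0 Wald test, other scalings and filters, fits of only the groups compared, a replicate block and the removal of each library were alternatives.

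The genes, lists and tests were chosen with earlier results of these data known. Named beside the 10 genes were up to 5 genes of each list past the threshold, or where none passed up to 2 of highest level, the isozymes, Pgi, Mhc and the 5 genes nearest to Ldh. Files also held the authors' log2 fold changes and p-values, per the file headers.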

Additional observations from a re-analysis of the deposited data

How the results depend on the processing

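Of 420 alternative values for the 10 genes, 382 kept their direction and side of the threshold, 10 lost a call and 28 changed sign, all of them estimates of Ald1, Tpi, Pgk or Pglym78. Leaving out 1 library, the 10 genes had 0 to 1 calls in SvbAct against Ctrl, 0 in RNAiSvb against Ctrl and 1 to 2 in SvbAct against RNAiSvb. In the last comparison a fit of only these groups called Hex-A (edgeR adjusted p 0.0129) and not Ldh (0.0545). Without 1 Ctrl library, the lone sample is assumed to vary like the other groups. Calls over all genes, in the order SvbAct against Ctrl, RNAiSvb against Ctrl and SvbAct against RNAiSvb, were 302, 119 and 549 in edgeR and 634, 344 and 1053 with the DESeq2 Wald test, and with 1 library left out 48 to 368, 23 to 141 and 262 to 497. With library totals, 69.9% of calls in SvbAct against Ctrl were higher, against 56.6% with TMM. The carbon lists had 3, 2 and 2 calls in edgeR, 6, 4 and 10 with DESeq2, 1 and 0 in the comparisons with Ctrl under library totals, and, in SvbAct against RNAiSvb, 1 with DESeq2 size factors, 1 with no filter and 0 with only the groups compared. Leaving out 1 library gave 0 to 3, 0 to 2 and 0 to 2.

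Same-numbered libraries correlated at -0.0646 to 0.144, and differently numbered ones at -0.199 to 0.153. These are correlations of deviations from means of few libraries, so they cannot settle pairing. The numbers were not taken as pairs. With the replicate block, calls over all genes were 269, 124 and 443, calls among the 10 genes were 1, 0 and 2, and the carbon lists had 1, 2 and 1. It ended the calls of Gpo1 and CG9399 in SvbAct against Ctrl (edgeR adjusted p 0.0756 and 0.0867), Mpc1 in RNAiSvb against Ctrl (0.0533) and kdn in SvbAct against RNAiSvb (0.0957), and among the carbon lists it added CG9485 in RNAiSvb against Ctrl (-1.09, edgeR adjusted p 0.0433). Signs that changed with the block were those of Pglym78 in SvbAct against Ctrl (-0.04) and Pgk in RNAiSvb against Ctrl (-0.02).

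Other signs changed with library totals for Ald1 (0.02) and Pgk (0.07) in SvbAct against Ctrl, Ald1 (0.02) and Tpi (0.07) in RNAiSvb against Ctrl and Ald1 (0.00) in SvbAct against RNAiSvb, with no filter for Pglym78 in SvbAct against Ctrl (0.00), and with DESeq2 size factors and the DESeq2 test for Gapdh2 (0.00) and Mpc1 (0.01) in SvbAct against RNAiSvb. With 1 library left out, log2 fold changes in SvbAct against Ctrl ran from -0.15 to 0.10 for Ald1, -0.16 to 0.29 for Tpi, -0.19 to 0.10 for Pgk, -0.15 to 0.16 for Pglym78 and -0.31 to 1.06 for Mhc. In RNAiSvb against Ctrl they ran from -0.14 to 0.01 for Ald1, -0.36 to 0.22 for Tpi, -0.01 to 0.26 for Pgk and -0.11 to 1.57 for Mhc. In SvbAct against RNAiSvb they ran from -0.07 to 0.18 for Ald1, -0.09 to 0.41 for Tpi, -0.12 to 0.07 for Gapdh2, -0.14 to 0.16 for Mpc1 and -0.95 to 0.33 for Mhc. The cause of these changes was not tested.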
